A study of Mus musculus with 4 samples.

Results

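The spots described here are the Visium spots of 2 mouse embryo sections in which at least 2 RNA molecules of Lgr5 were counted. A Visium spot is a small round capture area on a slide, set in a hexagonal grid, that can hold several cells of different types or part of one. The molecules are counted as unique molecular identifiers (UMIs), and the members were selected on this count of Lgr5. In each section, spots over tissue with at least 500 UMIs were kept, and the members are the kept spots with 2 or more Lgr5 UMIs. They numbered 80 of 3220 kept spots at E13.5 and 46 of 3588 at E16.5, so 126 of the 6808 kept embryo spots. Over all 4 sections of the series, 146 of 7435 kept spots reached that count. Each section was compared with itself: every member was paired with 1 spot of the same section that held 0 Lgr5 UMIs and had the nearest total UMI count, and these are called matched spots. A second matched set was drawn the same way from the spots with 0 Lgr5 UMIs that were left.

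The series placed fresh-frozen tissue, cut at 8 µm, on Visium slides at stages E13.5 and E16.5 (days of embryonic development) and at birth (P0), and its title concerns Lgr5 in the developing esophagus. All samples were labelled wild type (WT) and not treated. The embryo samples are 1 section at E13.5 and 1 section at E16.5, titled embryonic esophagus and labelled as mouse embryo tissue; the 2 P0 sections are not analysed further here. Both embryo sections held liver, heart, brain, cartilage and muscle genes as well, and the members lay in several of these surroundings. With 1 section per stage, spots are not replicates of a stage, so no difference below has a test, and every interval covers counting error alone.

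Lgr5 encodes a receptor for R-spondins, the secreted proteins that raise the response of a cell to Wnt ligands by sparing Frizzled receptors from the ligases Rnf43 and Znrf3. It is itself a Wnt target gene, and it is best known as a marker of stem cells at the base of intestinal crypts and in hair follicles. In mouse embryos its transcripts are also known from oral epithelium, from parts of the brain and from the inner ear. Keratins 5, 14 and 15 mark the basal layer of stratified epithelium, Trp63 is the factor that sets up that layer, and Scx and Tnmd mark tendon.

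Lgr5 chose the members, so its counts are given as a description only. At E13.5 the 3220 kept spots held 0 Lgr5 UMIs in 2850 spots, 1 in 290, 2 in 41, 3 in 25 and more in 14, up to 9 in 1 spot. At E16.5, 3250 spots held 0, 292 held 1, 37 held 2, 8 held 3 and 1 held 5. The spots just outside the rule, with 1 UMI, therefore outnumbered the members in both sections. The gene itself was left out of every list, count and ratio below; its count is used further only to define and describe sets of spots.

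Members were about as deep as other spots. Their totals ranged over 15717 to 66331 UMIs at E13.5 (median 27539.5) and over 10031 to 63500 at E16.5 (median 28059), against medians of 27533.5 and 28054.5 in the matched spots and of 29289 and 26701.5 in all kept spots. The matching left summed totals of 2396133 UMIs in members and 2396274 in matched spots at E13.5, and of 1405796 and 1405833 at E16.5. Mitochondrial genes took 1.36% of UMIs in members and 2.40% in matched spots at E13.5, and 3.08% and 3.99% at E16.5. The blood genes, among them hemoglobins and Alas2, summed to 16689 CPM (UMIs per 1000000 UMIs of the group) in members and 34000 CPM in matched spots at E13.5, and to 43927 and 62639 CPM at E16.5. The part of these differences in the values below was not tested. The 2 sections share 2532 spot barcodes, which are grid positions of the slide design.

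At E13.5 the members were gathered in the middle columns of the grid, mostly above the median row of the section but not at its highest rows. Their array rows had a median of 55 with quartiles of 46 and 60, whereas all kept spots had a median of 45 and quartiles of 31 and 60. Of the 80 members, 52 touched another member on the grid, against 13 of the 80 matched spots that touched another matched spot. The members formed 28 single spots, 9 pairs and 5 larger groups of 11, 11, 5, 4 and 3 spots, so 34 of them lay in groups of 3 or more. The matched spots formed 67 single spots, 5 pairs and 1 group of 3. The 270 spots that border a member held 0 Lgr5 UMIs in 193 cases and 1 in 77. Joining spots up to 2 grid steps apart collected 51 of the 80 members into 3 bands, of 20 spots at rows 51 to 62 and columns 43 to 59, of 16 spots at rows 44 to 59 and columns 78 to 84, and of 15 spots at rows 59 to 63 and columns 62 to 74.

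At E16.5 the members were scattered. They formed 38 single spots and 4 pairs, against 44 single spots and 1 pair among the matched spots, and even at 2 grid steps the largest group held 4 spots. Their median array row was 39 and their median column 45.5, against 37 and 73 for all kept spots, so they lay nearer the low-column side of the array. Of the 236 spots bordering a member, 187 held 0 and 49 held 1 Lgr5 UMI.

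**Figure D1:**
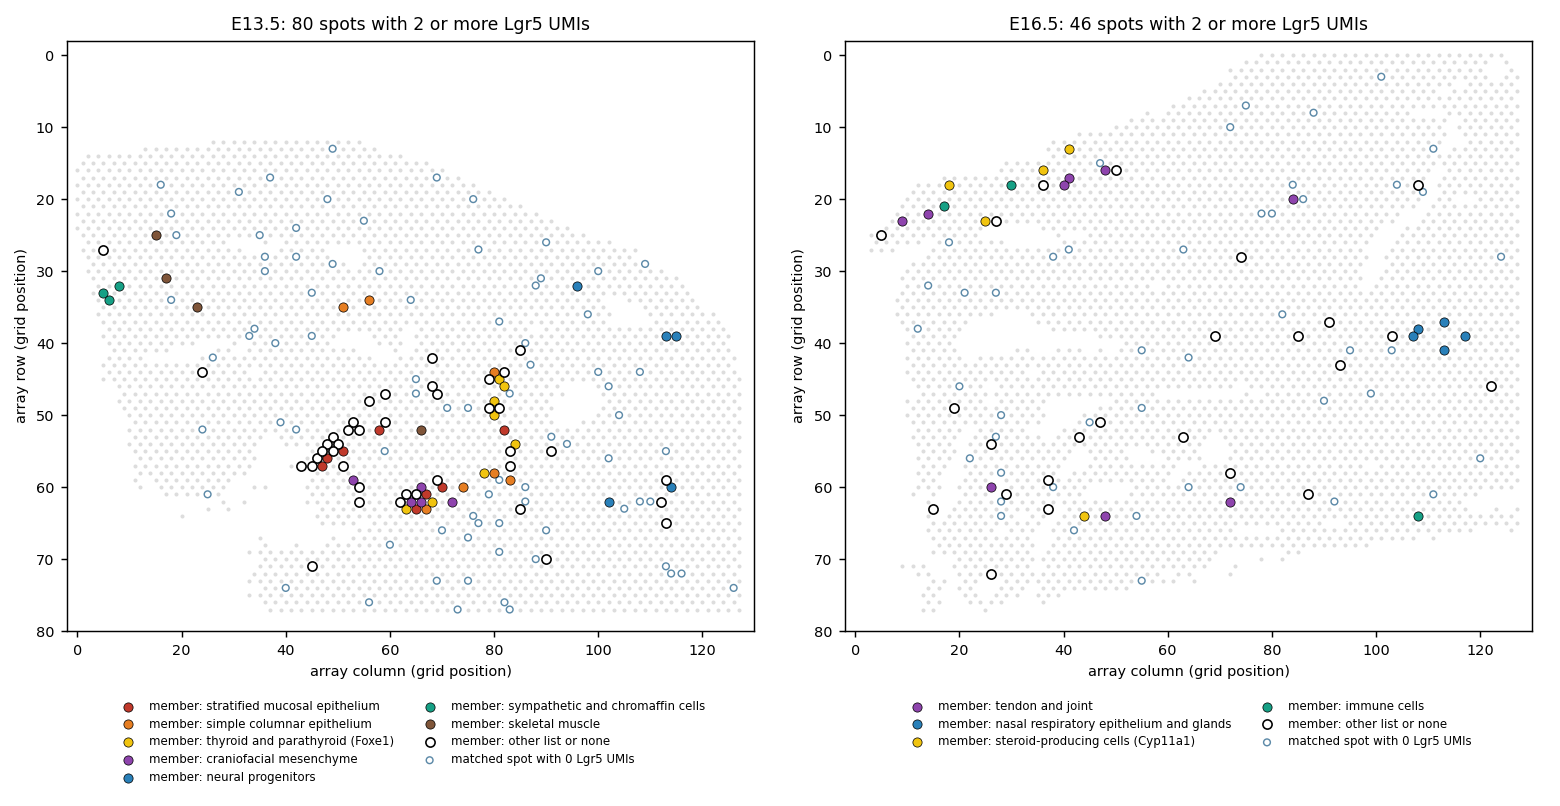
Positions of members (filled or large open circles) and matched spots (small blue circles) on the array grid of each section, with all other kept spots in grey; axes are array column and row. Members are coloured by the organ marker list they scored highest on. At E13.5 they form bands in the middle columns, at rows 44 to 63. At E16.5 they are spread out apart from 6 spots at rows 37 to 41 and columns 103 to 117, 5 of them on the nasal and gland list.

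At E13.5, genes of stratified and simple epithelium were several fold higher in members than in depth-matched spots, and genes of neurons, cartilage, heart and blood were lower. Of 10155 genes with at least 50 UMIs over both sets, 192 (1.89%) were at least 2-fold higher and 523 (5.15%) at least 2-fold lower in members, where fold is the ratio of CPM with 0.5 CPM added to each. The median gene stood at a log2 ratio of 0.04. Of these genes, 106 of the 192 and 443 of the 523 were also past 2-fold the same way against the second matched set. The stratified mucosal epithelium list (Krt13, Krt4, Krt5, Krt14, Krt15, Trp63, Perp, Krt6a) summed to 506 CPM in members (95% counting interval 478 to 536) and 64.3 CPM in matched spots (54.5 to 75.3), a log2 ratio of 2.97 (2.73 to 3.23). All 5 of its genes that could be compared were at least 2-fold higher, against both matched sets. Against the 193 spots without Lgr5 UMIs that border a member, the log2 ratio of this list was 1.19.

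Krt15, a basal keratin (chromosome 11, 100131759 to 100135949 in the GRCm38.p6 annotation), had 682 UMIs over 49 of 80 members and 80 UMIs over 35 of 80 matched spots. Per spot it ranged from 0 to 26.6 UMIs per 10000 in members (median 0.410), against 0 to 6.54 in matched spots (median 0). The 2 ranges overlap, since 31 members held none, and 12 members lay above every matched spot. In CPM it was 285 in members and 33.4 in matched spots, a log2 ratio of 3.07 (2.76 to 3.44). Krt5 stood at 76.0 CPM in members and 6.26 in matched spots (log2 ratio 3.50), and its partner keratin Krt14 at 58.4 and 4.59 CPM (3.53). Against the second matched set these log2 ratios were smaller, 2.08 for Krt5 and 1.74 for Krt14, and that of Krt15 was 3.22. Trp63 had 23.4 CPM in members and 3.34 CPM in matched spots (log2 ratio 2.64). Krt13, a keratin of the upper layers of mature mucosa, had 0 UMIs in members and 1 UMI in matched spots, and Krt4, its partner, 8.35 and 0.417 CPM.

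Pitx1, a homeobox factor of the hindlimb, the pituitary and the first pharyngeal arch (chromosome 13, 55825044 to 55836190), had 369 UMIs over 43 members and 23 UMIs over 16 matched spots. Its per-spot level ran from 0 to 13.6 UMIs per 10000 in members (median 0.281) and from 0 to 1.38 in matched spots (median 0). In all, 21 of the 80 members lay above every matched spot. The sums gave 154 CPM in members and 9.60 CPM in matched spots, a log2 ratio of 3.94 (3.40 to 4.68), and 2.48 against the second matched set of 0-UMI spots. Foxe1, a forkhead factor of the thyroid bud and the oral epithelium, had 26.3 CPM in members and 2.504 in matched spots (log2 ratio 3.16), with UMIs in 22 and 4 spots.

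Further genes among the 12 highest were mostly epithelial. Mir205hg, the host gene of an epithelial microRNA, had 23.8 CPM in members and 0.835 CPM in matched spots, where it rested on 2 UMIs; its log2 ratio was 4.19, and 2.51 against the second matched set. The S100 family gene S100a14 had 23.8 and 1.25 CPM, the tight-junction gene Cldn4 21.7 and 2.09 CPM, and the keratin Krt17 34.2 and 4.59 CPM. Wnt6, a Wnt ligand of surface epithelium, had 31.7 CPM in members and 3.76 in matched spots (log2 ratio 2.92, interval 2.08 to 4.26). Sostdc1, a secreted inhibitor of Wnt and BMP signals, had 59.3 and 7.51 CPM (2.90, interval 2.27 to 3.78), and its log2 ratio was 1.48 against the second matched set. All of these genes had a median of 0 UMIs in both sets, so each ratio describes a subset of the members. Against the bordering spots, 14 of the 21 genes named by rule stayed at least 2-fold apart, and Krt5 (0.94), Krt14 (0.99), Cldn4 (0.84) and Sostdc1 (0.42) among the higher ones did not.

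The simple columnar epithelium list (Epcam, Cdh1, Krt8, Krt18, Krt19, Cldn6, Cldn7, Elf3) summed to 249 CPM in members and 59.7 CPM in matched spots, a log2 ratio of 2.05 (1.80 to 2.34). All 6 of its compared genes were at least 2-fold higher. Against the bordering spots the log2 ratio fell short of 2-fold, at 0.54. The adhesion gene Epcam had 68.0 CPM in members and 12.9 in matched spots, and the keratin Krt19 36.3 and 5.43 CPM. Epidermal differentiation genes were not part of this: their list summed to 85.1 CPM in members and 84.7 CPM in matched spots, and neither of its 2 compared genes passed 2-fold.

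Of the 10 genes with the lowest ratios, most are neuronal. Zic1, a factor of the dorsal neural tube, had 10.4 CPM in members and 97.7 CPM in matched spots (log2 ratio -3.17). Gad2, an enzyme of GABA synthesis, had 3.76 and 36.7 CPM, and the glycine receptor subunit Glra2 3.76 and 30.5 CPM. Lamp5, Lhx1os, Iqsec3 and Gm27199 stood at log2 ratios between -3.14 and -2.77. Myh6 and Myl7, contractile genes of the atrial heart muscle, had 17.1 and 101 CPM in members and 148 and 737 CPM in matched spots, with at most 206 Myl7 UMIs per 10000 in a matched spot. The neuron list summed to 977 CPM in members and 3411 CPM in matched spots, with 10 of 12 compared genes at least 2-fold lower. The cartilage list summed to 959 and 2580 CPM, with 8 of 9 lower, of which 3 were also past 2-fold against the second matched set (1673 CPM in sum). In sections of mixed tissue, fewer cells of a type in the spots and less RNA per cell cannot be told apart.

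**Figure D2:**
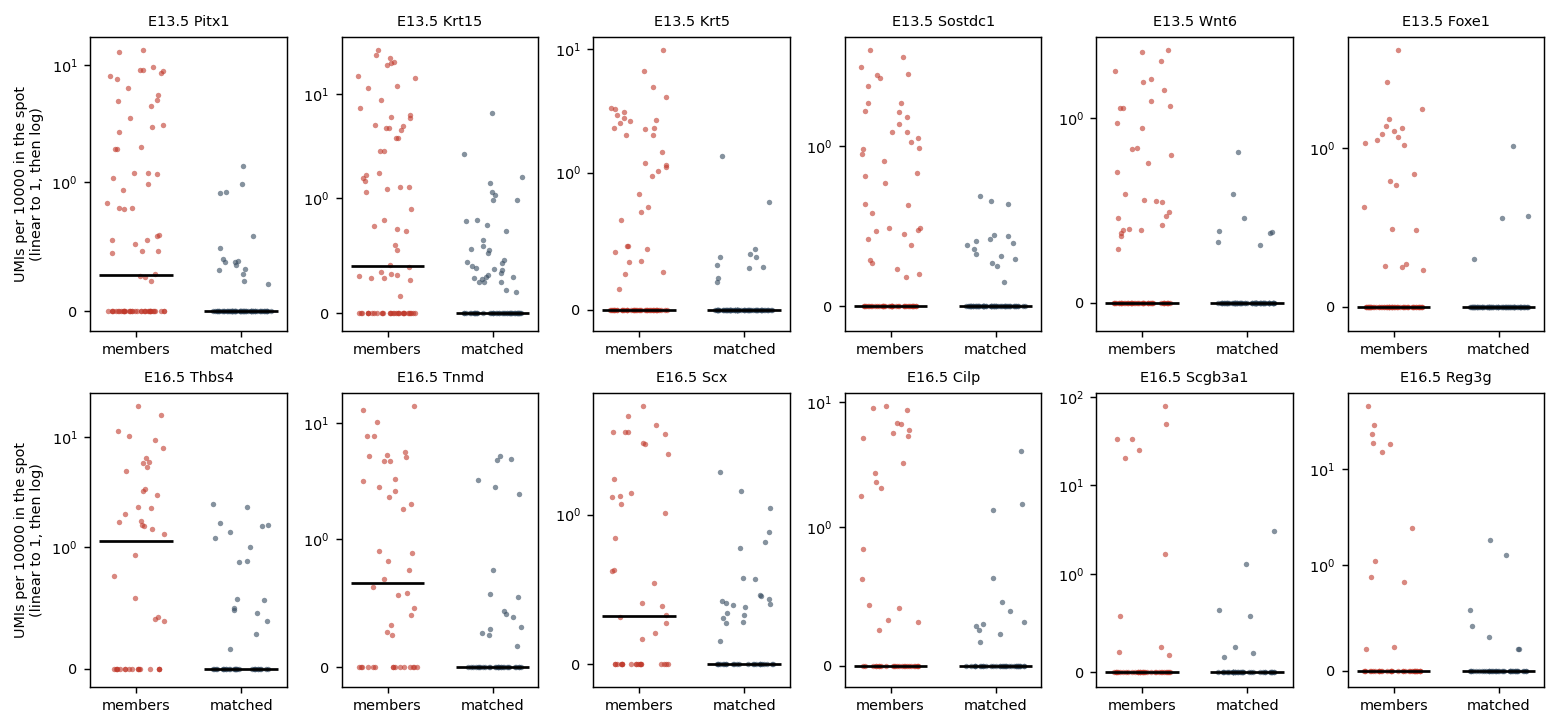
UMIs per 10000 UMIs in each member (left, red) and matched spot (right, blue) for 6 genes at E13.5 (top) and 6 at E16.5 (bottom), with the median as a black line; the axis is linear to 1 and logarithmic above. For every gene many spots of both sets lie at 0 and the highest spots are members; Scgb3a1 and Reg3g each have 6 members above 10 UMIs per 10000.

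The groups of adjacent members differed from each other in their leading genes, here given against all 2850 spots without Lgr5 UMIs. The group of 11 spots at rows 53 to 57 and columns 43 to 51 held the spot with 9 Lgr5 UMIs. It was led by Kcne4, a potassium channel subunit (78.3 CPM in the group, 3.54 CPM in the 0-UMI spots), Aldh1a3, a retinoic acid-making enzyme (90.9 and 4.73 CPM), Prss35 (492 and 28.8 CPM), Cpxm2 (62.7 and 3.85 CPM) and Krt14 (188 and 13.1 CPM). Krt5 stood at 219 CPM there, and Foxe1 had 0 UMIs. Pitx1 was at 37.6 CPM, far below its level in the group of equal size.

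That other group, of 11 spots at rows 60 to 63 and columns 62 to 68, was led by Pitx1, with 223 UMIs and at least 1 in each of the 11 spots (825 CPM in the group, 13.98 CPM in the 0-UMI spots). The nuclear receptor Nr5a2 followed (107 and 3.48 CPM), then Tspan8 (111 and 4.44 CPM) and Krt15 (440 and 26.9 CPM). Its highest list was craniofacial mesenchyme, with a mean z-score of 2.57 over all kept spots of the section.

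The 2 groups on columns 79 to 82 were led by Krt15. In the 5 spots at rows 44 to 46 it stood at 910 CPM, with Wfdc2, a secreted protease inhibitor of lining epithelium, at 273 CPM against 19.9 in the 0-UMI spots, Sostdc1 at 140 and 13.04 CPM, the matrix gene Thbs4 at 176 and 16.7 CPM, and Hmcn1 at 182 and 17.7 CPM. In the 4 spots at rows 48 to 50, Krt15 reached 1848 CPM and Foxe1 228 CPM against 2.98 in the 0-UMI spots. Anxa1 there stood at 559 and 16.4 CPM, Pax9, a factor of pharyngeal pouches and oral tissue, at 228 and 8.87 CPM, and Sostdc1 at 297 and 13.04 CPM. Krt15 thus differed across the 4 groups from 119 to 1848 CPM, and the counting intervals of the last 3 (365 to 527, 770 to 1068 and 1575 to 2156 CPM) do not overlap.

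Axin2, a Wnt target gene, stood at 31.3, 55.5, 6.07 and 34.2 CPM in these 4 groups, resting on 10, 15, 1 and 3 UMIs. It therefore did not follow Krt15 across the groups, as far as so few UMIs show. The fifth group, 3 spots at rows 51 to 52 and columns 52 to 54, had 1 Krt15 UMI and no Epcam or Trp63. Its leading genes, named although the group is below the size set for naming, were Adamts1, Tgfb2, Palld and Sfrp2, at 360, 360, 443 and 1121 CPM.

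Some members pointed to tissue far from these bands, in pairs and single spots whose genes were picked after their values were seen. The adjacent pair at rows 33 to 34 and columns 5 to 6 held 2079 CPM of Dbh, the enzyme that makes noradrenaline, against 11.7 CPM in the 0-UMI spots. With a further spot at row 32 and column 8, it carried most of the sympathetic and chromaffin list, which summed to 861 CPM in members and 132 CPM in matched spots (log2 ratio 2.70). The chromaffin granule gene Chgb had 868 UMIs in members, in 14 of them, and 84.0% of these lay in 2 spots. In matched spots Chgb had 99 UMIs over 27 spots. Without the 2 richest members and their matched spots, the list's log2 ratio was 0.39.

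The pair at rows 59 to 60 and columns 113 to 114 held 6786 of the 7108 Ttr UMIs of all members, 6474 of them in 1 spot. Kcne2, with UMIs in 1 of the 2 spots, and Defb11 were next to Ttr. Ttr encodes the transthyretin made by choroid plexus and liver, and this pair had a mean score of 7.7 on the choroid plexus list. The spot at row 59 and column 113 scored 13.1 on it, whereas the other pointed to neural progenitors (3.43). The choroid plexus list, which also holds Sostdc1, summed to 156 CPM in members, 53.4 CPM in matched spots and 112 CPM in the second matched set. Ttr had 2966 CPM in members and 250 CPM in matched spots, but its log2 ratio against the second matched set was 0.14. The spot at row 55 and column 91 held 118 of the members' 128 UMIs of Oc90, an otoconia matrix gene of the inner ear. The pair at row 39 and columns 113 to 115 was led by Adgrv1, AW047730 and Bcan, with Sox2, a factor of neural progenitors, at 738 CPM against 33.5 CPM.

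Skeletal muscle genes were also higher at E13.5. Their list summed to 1244 CPM in members and 663 CPM in matched spots, a log2 ratio of 0.91 (0.819 to 0.996), with 7 of 9 compared genes at least 2-fold higher, 5 of them against both matched sets. Myog and Myod1, factors of muscle differentiation, had 74.3 and 17.5 CPM in members and 29.2 and 7.51 CPM in matched spots, and embryonic myosin Myh3 had 177 and 70.9 CPM; Myod1 stood at a log2 ratio of 0.67 against the second matched set. At E16.5 the same list summed to 11941 CPM in members and 12158 CPM in matched spots, with 0 of 9 compared genes past 2-fold in either direction.

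Each spot was also assigned to the organ marker list on which its z-score was highest, if that was at least 2. At E13.5, 77 of 80 members and 73 of 80 matched spots pointed to 1 of 49 lists, but only 58 of the 77 members had UMIs of 3 or more markers of their list. Stratified mucosal epithelium drew 8 members and 0 matched spots, beside 38 of all 2850 spots without Lgr5 UMIs. Simple columnar epithelium drew 7 members and 0 matched spots, beside 14 of the 2850, and neural progenitors 5 and 2. Craniofacial mesenchyme drew 5 members and 5 matched spots.

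Some of these names did not hold at the gene level. The 8 members that pointed to thyroid and parathyroid did so through 33 UMIs of Foxe1, with Tg, Tshr, Slc5a5, Pth and Gcm2 all at 0. Their leading genes were Foxe1, Krt15, Pitx1 and Pax9, and they are better described by those genes. The 3 on the thymus list rested on 3 UMIs of Rag1 and 1 of Foxn1.

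Among Wnt pathway genes at E13.5, 3 of 7 compared ligands were at least 2-fold higher, against 1.89% of all genes compared: Wnt6, Wnt4 (16.7 and 6.68 CPM) and Wnt5a (83.5 and 41.3 CPM). Wnt5a, at a log2 ratio of 1.01, stood at 0.61 against the second matched set. The ligand list summed to 236 CPM in members and 123 CPM in matched spots, a log2 ratio of 0.94, and of 0.24 against the bordering spots. The receptor and feedback list summed to 872 and 591 CPM (0.56), with 2 of 18 at least 2-fold higher, Apcdd1 (110 and 44.2 CPM) and Tnfrsf19 (33.4 and 13.8 CPM), and 0 lower; against the second matched set Apcdd1 stood at 0.92 and did not pass. Axin2 had 69 UMIs in members and 34 in matched spots, 28.8 and 14.2 CPM, a log2 ratio of 0.996 with a counting interval of 0.41 to 1.66. Lgr4, the paralog of Lgr5, had 59.3 and 33.4 CPM, and the R-spondin list 40.1 and 37.6 CPM.

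Among other signals at E13.5, Sostdc1 was the 1 of 8 compared Wnt antagonists past 2-fold, and the activin and BMP inhibitor Fst the 1 of 15 BMP genes (27.1 CPM in members and 3.76 in matched spots). Of 7 compared FGF genes 2 were at least 2-fold higher, the feedback inhibitors Spry1 (36.3 and 14.2 CPM) and Spry2 (23.0 and 10.4 CPM). Neither passed against the second matched set, where their log2 ratios were 0.78 and -0.03. No Hedgehog gene of 9 and no Notch gene of 13 passed 2-fold in either direction. Of 13 compared epithelial progenitor factors, Trp63, Klf5, Cd44, Hopx and Aldh1a3 were at least 2-fold higher, while Sox9 had 93.1 and 95.1 CPM and Smoc2 80.5 and 97.7 CPM. Against the second matched set Cd44 (0.94) and Hopx (0.26) did not pass, and 60.2% of the members' Hopx UMIs lay in 2 spots. The proliferation list summed to 1388 CPM in members and 1031 CPM in matched spots, and none of its 12 genes passed 2-fold, although all 12 had ratios above 0.

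At E16.5 the leading genes were those of tendon and joint and, in 5 spots, of a secretory airway epithelium. Of 7946 genes compared, 157 (1.98%) were at least 2-fold higher and 172 (2.16%) at least 2-fold lower in members, and the median gene was at a log2 ratio of 0. Against the second matched set, 116 of the 157 and 134 of the 172 were also past 2-fold the same way. The tendon and joint list (Scx, Tnmd, Gdf5, Mkx, Fmod, Thbs4, Prg4, Osr2) summed to 1068 CPM in members and 268 CPM in matched spots, a log2 ratio of 1.99 (1.83 to 2.16). Of its 5 compared genes, 4 were at least 2-fold higher, and the fifth, the collagen-binding Fmod, had 213 and 136 CPM. Against the 187 bordering spots without Lgr5 UMIs the log2 ratio of the list was 1.16.

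Thbs4, a matrix protein of tendon and muscle (chromosome 13, 92751586 to 92794818), had 439 UMIs over 29 of 46 members and 52 UMIs over 18 of 46 matched spots. Per spot it ranged from 0 to 19.2 UMIs per 10000 in members (median 1.12) and from 0 to 2.45 in matched spots (median 0). The median member therefore lay within the range of the matched spots, and the upper members lay above all of them. Its CPM was 312 in members and 37.0 in matched spots, a log2 ratio of 3.06 (2.66 to 3.52). Tnmd, a membrane protein of tendon cells (X chromosome, 133851008 to 133865577), had medians of 0.657 and 0 UMIs per 10000 with highest values of 14.1 and 5.27, and 247 and 47.7 CPM (log2 ratio 2.36).

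Scx, the tendon transcription factor, had 135 CPM in members and 24.2 CPM in matched spots (log2 ratio 2.46), with UMIs in 27 and 22 spots. Its highest spot reached 6.40 UMIs per 10000 among members and 2.07 among matched spots. Cilp, a cartilage and tendon matrix gene, had 203 and 17.8 CPM (3.47), Prg4, the joint lubricant lubricin, 131 and 12.8 CPM (3.30), and Itga11, a collagen receptor, 31.3 and 5.69 CPM (2.36). These 6 genes stayed at least 2-fold higher against the bordering spots, with log2 ratios from 1.10 for Tnmd to 2.52 for Cilp; of all 21 genes named by rule at E16.5, 8 did.

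**Figure D3:**
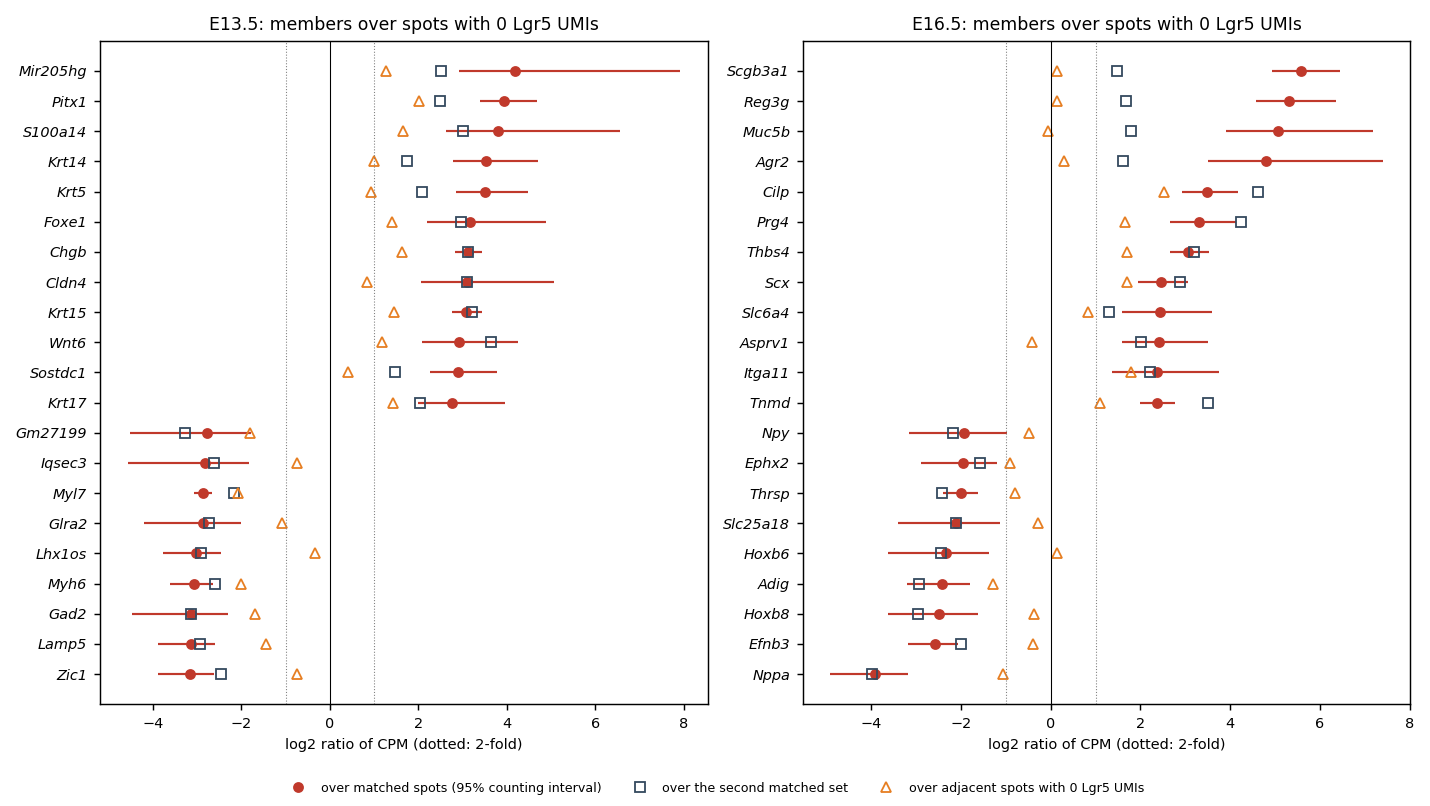
Log2 ratios of CPM, members over spots with 0 Lgr5 UMIs, for the 21 genes named by rule in each section: over matched spots with the 95% counting interval (red), over the second matched set (squares) and over the bordering spots (triangles). At E13.5 most triangles stay beyond the 2-fold lines, and at E16.5 those of Scgb3a1, Reg3g, Muc5b and Agr2 lie near 0 while those of the tendon genes do not.

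The tendon list drew 9 of the 46 members and 0 of the 46 matched spots, beside 76 of 3250 spots without Lgr5 UMIs. All 9 held UMIs of at least 4 of its 8 markers. They lay in different places, 6 of them at rows 16 to 23 and 3 at rows 60 to 64. The pair at rows 17 to 18 and columns 40 to 41, where the list scored 4.8, held 768 CPM of Prg4, 900 of Cilp, 1256 of Thbs4 and 600 of Scx, against 11.2, 15.5, 41.5 and 22.7 CPM in the 0-UMI spots. The pair at row 16 and columns 48 to 50 held 610 CPM of Cilp, 687 of Thbs4 and 273 of Scx, together with 6050 CPM of embryonic myosin Myh3 against 520 CPM in the 0-UMI spots. The pair at row 23 and columns 25 to 27 held 798 CPM of Tnmd and 991 CPM of C1qtnf3. Pairs are below the size set for naming, and these genes were chosen after their values were seen.

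The 4 highest ratios at E16.5 belonged to secreted products of airway epithelium and rested on few spots. Scgb3a1, a secretoglobin, had 563 CPM in members and 11.4 CPM in matched spots (log2 ratio 5.57, interval 4.92 to 6.44), but 91.0% of its 792 UMIs lay in 5 members, and its median was 0 in both sets. Reg3g, an antibacterial lectin, had 357 and 8.54 CPM, with 85.5% of its UMIs in 5 members. The mucin Muc5b had 112 and 2.85 CPM, and Agr2, which folds mucins, 73.3 and 2.13 CPM. Against the second matched set the log2 ratios of these genes were between 1.48 and 1.79, and against the bordering spots between -0.05 and 0.30.

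The 5 members behind these values lay at rows 37 to 41 and columns 107 to 117 and pointed to the list of nasal respiratory epithelium and glands, as did 1 matched spot. Together they held 3920 UMIs of Scgb3a2, 428 of Reg3g and 136 of Muc5b. The list summed to 506 CPM in members and 133 CPM in matched spots, a log2 ratio of 1.92, and of 0.07 against the bordering spots. Of its 3 compared genes, Muc5b and Reg3g were higher and Scgb1a1 was lower in members (32.0 and 120 CPM), though above the second matched set (log2 ratio 0.67). Its nasal genes Bpifb5 and Obp1a had 0 UMIs in both sets, so the list's name rests on genes shared with the airways of the lung, and the region is described here as Scgb3a2-rich. The members held 4254 Scgb3a2 UMIs and the matched spots 844, of which 802 lay in 1 spot.

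Keratinised epithelium was higher as well at E16.5, with 1 spot carrying much of it. The stratified mucosal list summed to 1117 CPM in members and 499 CPM in matched spots (log2 ratio 1.16), with 6 of 7 compared genes at least 2-fold higher, of which 2 also passed against the second matched set. The spot at row 53 and column 43 held 169 of the 406 Krt13 UMIs and 184 of the 566 Krt15 UMIs. Without the 2 richest members and their matched spots the log2 ratio was -0.02, and against the bordering spots -0.12. The epidermis list (Krt1, Krt10, Lor and others) summed to 423 and 114 CPM (1.89), with 4 of 5 compared genes at least 2-fold higher (3 against both matched sets), and stood at -0.80 against the bordering spots. Asprv1, an epidermal protease, had 47.7 and 8.54 CPM with UMIs in 21 members and 9 matched spots.

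Connective tissue genes were higher by a smaller factor, 21838 CPM in members and 12603 CPM in matched spots in sum, with Lum, Postn and Ogn past 2-fold of 8 compared, at a log2 ratio of 0.79 for the sum and 0.33 against the bordering spots. The macrophage gene Cd68 had 51.9 and 10.7 CPM, the 1 of 7 compared immune genes past 2-fold. Slc6a4, the serotonin transporter, had 44.8 and 7.82 CPM, but 81.0% of its 63 UMIs lay in 2 spots. The list of steroid-producing cells drew 5 members and 0 matched spots, through 8 UMIs of Cyp11a1 in 4 spots and 1 each of Star and Nr5a1. Their leading genes were Cma1, Cpa3, Hdc and Tpsb2, which mast cells are known for, with Cma1 at 2051 CPM against 88.1 CPM in the 0-UMI spots. Over all members Cma1, picked after its value was seen, had 378 CPM in 19 spots, against 79.0 CPM in 24 matched spots.

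Brown fat genes were lower in E16.5 members, and single genes of heart muscle and posterior identity were among the 10 lowest. The brown fat list summed to 1088 CPM in members and 2944 CPM in matched spots, with 4 of 4 compared genes at least 2-fold lower, and the lipid-synthesis gene Thrsp and the adipogenin gene Adig had 51.9 and 15.6 CPM in members and 208 and 86.8 CPM in matched spots. Nppa, a hormone of the atrial heart muscle, had 9.25 and 146 CPM (log2 ratio -3.91), with UMIs in 13 members and 10 matched spots. The heart list summed to 1204 CPM in members and 1321 CPM in matched spots (log2 ratio -0.13). It was 2210 CPM in the second matched set (-0.88). Of its 7 compared genes 3 were at least 2-fold lower than in matched spots, while Myl7 had 509 and 314 CPM and Myh6 137 and 115 CPM. The posterior patterning genes Hoxb8 and Hoxb6 had 7.82 and 6.40 CPM in members and 46.2 and 34.1 CPM in matched spots. The posterior Hox list summed to 76.8 CPM in members and 147 CPM in matched spots (log2 ratio -0.93), and to 216 CPM in the second matched set (-1.48). Hoxb8 was the 1 of its 3 compared genes past 2-fold. Efnb3, Slc25a18, Ephx2 and Npy were also among the 10 lowest, at log2 ratios from -2.57 to -1.93. Bone genes summed to 203 CPM in members, 639 CPM in matched spots and 168 CPM in the second matched set, so its direction turned with the set of matched spots.

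Fewer Wnt pathway genes could be compared at E16.5. The ligand list summed to 127 CPM in members and 121 CPM in matched spots with 0 of 2 compared genes past 2-fold, and Axin2 had 9.25 and 9.96 CPM. Of 10 compared receptor and feedback genes, Tnfrsf19 was at least 2-fold higher (24.9 and 11.4 CPM, and 0.79 on the log2 scale against the second matched set) and Fzd3 at least 2-fold lower (12.1 and 28.5 CPM). The secreted Wnt inhibitor Wif1 had 64.0 and 22.1 CPM, and the BMP inhibitor Chrd 31.3 and 9.96 CPM. Prom1, a membrane protein of several progenitor types, had 19.9 and 77.5 CPM but a log2 ratio of 0.10 against the second matched set, and 0 of 11 proliferation genes passed 2-fold.

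**Figure D4:**
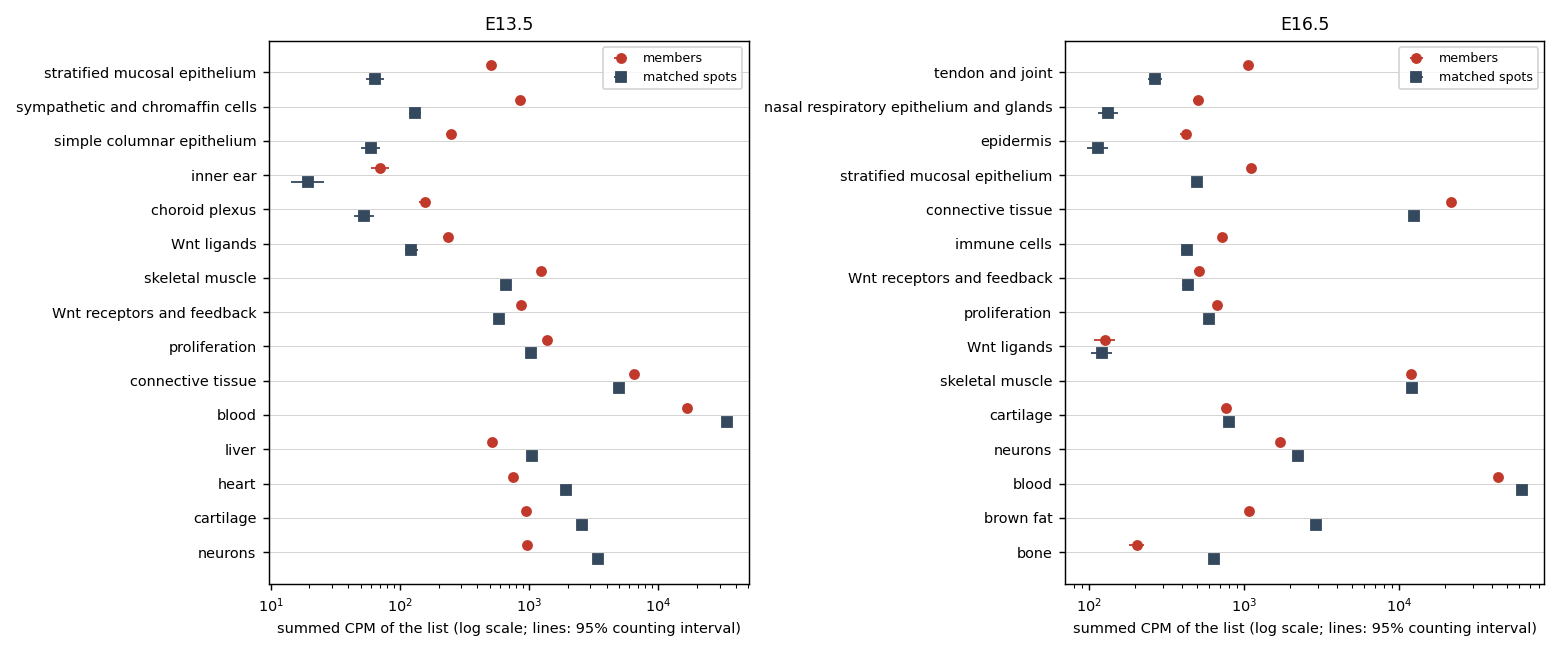
Summed CPM of 15 marker or pathway lists per section in members (red circles) and matched spots (blue squares) on a log axis, with 95% counting intervals. The lists are ordered by their difference, from epithelial, sympathetic and tendon lists at the top to neurons at E13.5 and bone at E16.5 at the bottom.

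The levels are also given by the number of Lgr5 UMIs, the value that chose the members, as a description with no test. At E13.5 the stratified mucosal epithelium list stood at 64.3 CPM in matched spots, 139 CPM in the 290 spots with 1 UMI, 429 CPM in the 41 spots with 2 and 579 CPM in the 39 spots with 3 or more. Krt15 followed with 33.4, 55.8, 251 and 316 CPM, Pitx1 with 9.60, 36.8, 138 and 169 CPM, and Axin2 with 14.2, 13.6, 23.3 and 34.0 CPM. The neurons list ran the other way, at 3411, 2878, 1529 and 459 CPM. At E16.5 the tendon and joint list stood at 268, 393, 970 and 1415 CPM and Thbs4 at 37.0, 76.8, 261 and 491 CPM, whereas Scgb3a1 stood at 11.4, 266, 724 and 0 CPM, the last over 9 spots.

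**Figure D5:**
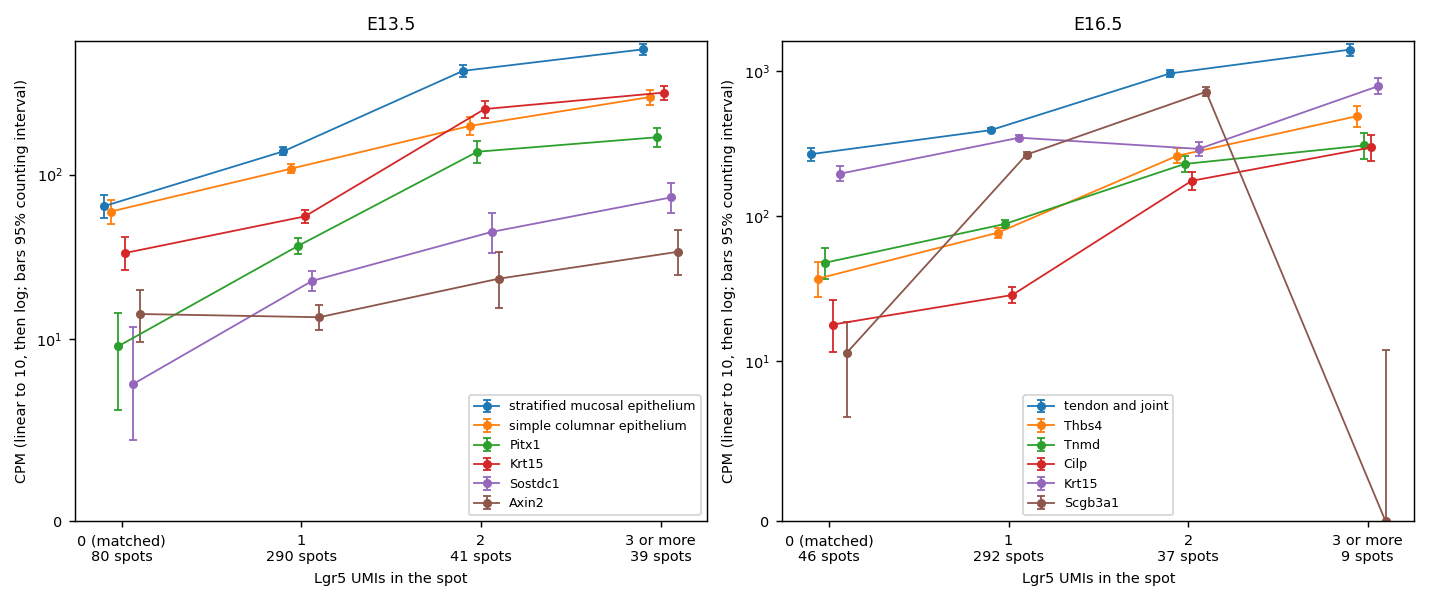
CPM of selected lists and genes in spots with 0 (matched), 1, 2 and 3 or more Lgr5 UMIs in each section, with 95% counting intervals; the axis is linear to 10 and logarithmic above. The Lgr5 count chose the members, so the lines are a description; most are higher in spots with more Lgr5 UMIs, Axin2 is level between 0 and 1, and Scgb3a1 at E16.5 drops to 0 in the 9 spots with 3 or more.

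The lists of the stages overlapped in part. Among 7617 genes compared in both sections, 96 at E13.5 and 111 at E16.5 were at least 2-fold higher in members, and 15 were so in both, which is 15.6% of the first list and 13.51% of the other; of all 7617 genes, 1.26% were higher at E13.5 and 1.46% at E16.5. Of the 15, 8 were past 2-fold against both matched sets of both sections. The 15 were Capg, Col7a1, Fndc1, Klf5, Krt15, Krt17, Krt5, Olfml2b, Perp, Runx1, S100a14, Sfn, Srgn, Tnfrsf19 and Twist2. Of these, the 4 genes Krt15, Krt17, Krt5 and Perp and the basement membrane collagen Col7a1 belong to basal epithelium, but only Krt5 is among the 8. Against the second matched set at E16.5, Krt15 (log2 ratio 0.998), Krt17 (0.54), Perp (0.60) and Col7a1 (0.83) did not pass. Of the genes at least 2-fold lower, 42 were shared, 12.2% of 344 at E13.5 and 32.6% of 129 at E16.5, beside 4.52% and 1.69% of all 7617 genes. They included neuronal genes such as Slc17a6, Slc12a5 and Elavl2 beside Nppa, Hoxb7 and Hoxb8, and 34 of the 42 held against both matched sets of both sections. Ibsp, a bone matrix gene, was higher in members at E13.5 and lower at E16.5, but stood at log2 ratios of 0.22 and 0.13 against the second matched sets. Pitx1, at 14.2 CPM in members and 7.82 CPM in matched spots, was below the count set for comparison at E16.5, as were Foxe1, Wnt6 and Sostdc1.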

How the data were processed

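Per the labels and the submitters' processing notes, 8 µm fresh-frozen sections were profiled on 10x Genomics Visium slides and the reads were processed with Space Ranger (2.0.0 per the file headers) against mm10. The deposited matrices hold raw counts (UMIs per gene and spot, 32285 genes), checked to be whole numbers. UMIs were summed over spots and expressed as CPM with exact Poisson 95% intervals; ratios carry exact conditional binomial intervals. Matching was 1 to 1 without replacement, from the deepest member down. Genes named by rule had UMIs in at least 15% of spots of the higher set and were at least 2-fold the same way against the second matched set: the 12 highest and 10 lowest per section, and 5 per adjacent group of 4 or more spots, less a few genes that are not reported here. Scores were means of log(1 + UMIs per 10000) over 53 organ lists (10 further lists were pathways), z-scored over kept spots. Doublets do not apply to spots. Members and lists were chosen with earlier results of these data known. Gene positions are from the RefSeq GRCm38.p6 table. The ratios and their intervals were tested on simulated counts. Python 3.11.15, numpy 2.4.6, scipy 1.17.1, pandas 2.3.3, R 4.3.3 and edgeR 4.0.16 (TMM factors as an alternative only) were used.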

Additional observations from a re-analysis of the deposited data

Results flagged for a closer look

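In the comparison of stages, 5 marker lists were flagged as standing on opposite sides in the 2 sections. The rule asked for a log2 ratio at least 0.5 from 0 in both sections, each with a counting interval that leaves out 0. The difference between the sections was not tested, since each stage is 1 section. As log2 ratios of summed CPM, members over matched spots, neural progenitor genes stood at 0.55 at E13.5 and -0.87 at E16.5, bone genes at 0.66 and -1.65, sensory ganglion genes at -1.19 and 0.50, genes of neural crest glia and enteric nerves at 0.62 and -0.92, and brown fat genes at 0.85 and -1.44. Brown fat genes at E13.5 were near their lower limit of counting, 35.1 CPM in members and 19.2 CPM in matched spots, and Adipoq and Plin1 had 0 UMIs there. Against the second matched set 2 of the 5 lists no longer stood on opposite sides: bone genes at E16.5 had 203 CPM in members and 168 CPM in that set, and brown fat genes at E13.5 had 35.1 and 38.8 CPM.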

How the results depend on the processing

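No paired analysis was possible because each stage is 1 section and spots carry no replicate number. The numbers of genes at least 2-fold higher and lower at E13.5 (192 and 523 of 10155 compared) became 485 and 1564 of 15677 against all 0-UMI spots. They were 64 and 103 of 11429 against bordering spots. At a limit of 20 UMIs per gene they were 391 and 813 of 12418, and at 100 UMIs 97 and 296 of 7518. With the 290 spots of exactly 1 Lgr5 UMI in place of the members, over their own matched 0-UMI spots, they were 81 and 63 of 13161. At E16.5 (157 and 172 of 7946) they became 351 and 482 of 8049 against the second matched set. Against all 0-UMI spots they were 778 and 1671 of 16317. They were 353 and 444 of 11467 at 20 UMIs and 87 and 71 of 4581 at 100. With 1-UMI spots in place of the members they were 311 and 76 of 13730. In members, 37 of 11135 were higher than in bordering spots, and 107 of 7946 were lower at a pseudocount of 5 CPM. A lower UMI limit or more spots in a set admits more genes by construction. The other causes were not tested.

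The log2 ratios below are of members over the set named. Those given for 1-UMI spots are instead of these spots over their own matched 0-UMI spots. In the order second matched set, all 0-UMI spots and bordering spots, the E13.5 stratified mucosal list (2.97) stood at 2.56, 2.67 and 1.19. For 1-UMI spots it stood at 0.69. The simple columnar list (2.05) stood at 1.65, 1.68 and 0.54, and at 0.28 for 1-UMI spots. Without the largest adjacent group, here that at rows 53 to 57, 1 of 2 tied at 11 spots, it was 2.36. The sympathetic list (2.70) stood at 2.998 against the second set, 1.47 against bordering spots and 1.74 for 1-UMI spots. It was 2.90 for members with 3 or more UMIs, 2.90 without the largest group, 2.53 with groups weighted equally, and 0.39 without its 2 richest members. Wnt ligands (0.94) stood at 0.24 against bordering spots, 0.31 for 1-UMI spots, 1.62 for members with 3 or more UMIs and 0.66 with equal weights. Wnt receptors and feedback (0.56) stood at 0.24 against bordering spots, 0.17 for 1-UMI spots and 0.74 for members with 3 or more UMIs.

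At E16.5 the tendon list (1.99) stood at 2.85 against the second set, 1.16 against bordering spots and 2.24 against matched spots that do not border a member. It was 0.43 for 1-UMI spots, 3.53 for members with 3 or more UMIs, 1.43 with equal weights and 1.68 without its 2 richest members. The nasal and gland list (1.92) stood at 1.59 against the second set, 2.91 against all 0-UMI spots and 0.070 against bordering spots. It was 5.71 for the 9 members with 3 or more UMIs, over matched spots of their own. The 5 members that pointed to this list held 2 Lgr5 UMIs each, so none of them is in that set. The value of 5.71 lies near the floor of counting, and its size depends on the 0.5 CPM added to each side. Without the adjacent pair at rows 38 to 39, 1 of 4 tied as largest, it was 1.41. It was 0.69 with equal weights and 0.97 without its 2 richest. The stratified mucosal list (1.16) stood at 0.98 and 0.89 against the second set and all 0-UMI spots, and at 1.69 against matched spots away from members. It was 3.37 for members with 3 or more UMIs, a set that includes the spot at row 53 and column 43 with 551 UMIs of the list. The ratio was 1.39 without the same pair and 1.61 with equal weights. It turned to -0.12 against bordering spots and -0.021 without its 2 richest. Epidermis (1.89) stood at 1.23 and 0.050 against the second set and all 0-UMI spots, and at 0.74 for 1-UMI spots. It was 3.16 for members with 3 or more UMIs and 1.51 without its 2 richest, and turned to -0.80 against bordering spots. Connective tissue (0.79) stood at 1.55, 1.19 and 0.33 against the second set, all 0-UMI and bordering spots, and at 0.37 for 1-UMI spots. It was 0.94 against matched spots away from members, 1.71 for members with 3 or more UMIs and 0.98 without the same pair. With TMM factors it was 0.82, with equal weights 0.60 and without its 2 richest 0.63.

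Joining spots 2 steps apart gave 25 groups, the largest of 20, at E13.5 and a largest group of 4 at E16.5. With a z-score of at least 3, 51 and 29 members pointed to a list, 5 of them to tendon at E16.5. Scoring by the summed share of UMIs left 2 members on simple columnar epithelium and 5 on thyroid and parathyroid at E13.5, and 3 on tendon and 3 on nasal glands at E16.5. Some named genes turned direction. In 1-UMI spots over their own matched 0-UMI spots these were Zic1 (0.36), Iqsec3 (0.13), Slc6a4 (-1.20), Efnb3 (0.042), Hoxb8 (0.25), Hoxb6 (0.53), Slc25a18 (0.37) and Npy (0.45). In members over bordering spots they were Muc5b (-0.051), Asprv1 (-0.43) and Hoxb6 (0.14). For members with 3 or more UMIs it was Scgb3a1 (-2.89). No Scgb3a1 UMI was counted in those members, so the size of that value depends on the 0.5 CPM added to each side. The setting without the 2 richest members was chosen after seeing the data. With TMM factors or spots of at least 2000 UMIs, all 21 genes named in each section stayed past 2-fold.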
